A study of Homo sapiens with 8 samples.

Results

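ESR1, PGR, ERBB2, GATA3, FOXA1, TFF1 and XBP1 are genes by which luminal breast cancers are recognised. Their chromatin was examined in SUM159, a long-established, mesenchymal line from a triple-negative breast cancer. Triple-negative tumours are defined by the absence of oestrogen and progesterone receptors and of HER2 amplification. The 7 genes were chosen by name, out of 19970 protein-coding genes of chromosomes 1 to 22 and X, and none was left out. Measured for each gene were the share and width of H3K4me3 peaks in the transcription start site (TSS) ± 1 kb and the share of the TSS ± 10 kb covered by H3K9me3 peaks.

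Native ChIP-seq had been performed on SUM159 cells transduced with pLV-KRAB, a lentiviral vector for dCas9-KRAB, a nuclease-dead Cas9 joined to the KRAB repressor domain. In All gRNA cells the vector came with a combination of 4 gRNAs against the promoter of ZEB1, a transcriptional repressor that drives the epithelial to mesenchymal transition. In No gRNA cells it came as an empty vector control, so both groups carried dCas9-KRAB. Each group had 2 biological replicates for each mark, which made 8 libraries in all. The methods describe puromycin selection after transduction. They call the replicates of the RNA libraries single clones and do not state how the ChIP-seq replicates were made. The sample titles call these biological, and whether they came from separate transductions is not known. Each library was available as a list of peaks with no read counts, so its depth is unknown, and a share is the percentage of a window's bases under any deposited peak. The comparison asks whether chromatin at luminal genes differed once ZEB1 had been targeted.

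ESR1 encodes oestrogen receptor alpha and PGR the progesterone receptor. ERBB2 encodes HER2, a receptor tyrosine kinase. FOXA1 is a pioneer factor that opens chromatin for the oestrogen receptor, and GATA3 is a zinc finger factor of the luminal lineage. TFF1 encodes a secreted trefoil peptide and is a classical oestrogen target gene. XBP1 is the bZIP factor of the unfolded protein response and is also high in luminal tumours. H3K4me3 marks the start sites of active and poised genes, most of all those rich in CpG dinucleotides, whereas H3K9me3 marks heterochromatin.

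The start regions differed in sequence, and the 250 bases before 4 of the start sites are shown because they differ in CpG content. They were read from RefSeq promoters of build GRCh38.p14, which held a window at the start site used here for 5 of the 7 genes. Each runs 5′ to 3′ on the strand of the gene, and capitals mark CpG dinucleotides. The stretch of XBP1 (chr22:28800570-28800819, minus strand) holds 31 CpGs, that of FOXA1 (chr14:37595250-37595499, minus strand) holds 26, that of ESR1 (chr6:151807432-151807681, plus strand) holds 11 and that of PGR (chr11:101129814-101130063, minus strand) holds 5.
XBP1: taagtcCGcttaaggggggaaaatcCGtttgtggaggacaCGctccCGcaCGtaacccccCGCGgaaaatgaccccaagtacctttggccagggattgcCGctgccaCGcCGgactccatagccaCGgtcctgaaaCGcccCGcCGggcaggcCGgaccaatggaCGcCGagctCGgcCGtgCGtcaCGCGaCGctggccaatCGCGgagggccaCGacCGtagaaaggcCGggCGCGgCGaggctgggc
FOXA1: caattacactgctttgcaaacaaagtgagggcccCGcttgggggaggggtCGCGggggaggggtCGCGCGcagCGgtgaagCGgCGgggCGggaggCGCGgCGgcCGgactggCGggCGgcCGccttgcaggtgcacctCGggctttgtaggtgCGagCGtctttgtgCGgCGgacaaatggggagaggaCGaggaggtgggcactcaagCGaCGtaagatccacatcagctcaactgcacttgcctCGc
ESR1: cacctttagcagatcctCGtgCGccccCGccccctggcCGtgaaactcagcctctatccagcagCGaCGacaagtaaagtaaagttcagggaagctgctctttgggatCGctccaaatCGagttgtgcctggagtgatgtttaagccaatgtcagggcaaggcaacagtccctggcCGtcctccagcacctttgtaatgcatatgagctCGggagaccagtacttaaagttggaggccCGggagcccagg
PGR: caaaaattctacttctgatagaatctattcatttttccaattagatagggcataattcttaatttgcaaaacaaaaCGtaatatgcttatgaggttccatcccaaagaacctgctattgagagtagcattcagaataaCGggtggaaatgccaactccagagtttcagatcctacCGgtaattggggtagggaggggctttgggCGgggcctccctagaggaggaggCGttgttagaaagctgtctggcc

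The start sites used, in hg38, were at 151807682 of chromosome 6 for ESR1 (ENSG00000091831.25, plus strand) and at 101129813 of chromosome 11 for PGR (ENSG00000082175.16, minus strand). The ERBB2 start lay at 39700064 of chromosome 17 (ENSG00000141736.14, plus strand), and that of GATA3 at 8054688 of chromosome 10 (ENSG00000107485.18, plus strand). The FOXA1 start lay at 37595249 of chromosome 14 (ENSG00000129514.8, minus strand), that of TFF1 at 42366535 of chromosome 21 (ENSG00000160182.3, minus strand), and that of XBP1 at 28800569 of chromosome 22 (ENSG00000100219.17, minus strand). Each is the first base of an annotated first exon. GATA3 is on the same chromosome as ZEB1, 23.3 Mb away.

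ZEB1, the targeted gene, was looked at first as a check of the labels. The share of its TSS ± 10 kb under H3K9me3 was 75.8% and 80.9% in All gRNA cells and 4.57% and 1.33% in No gRNA cells. The groups lay far apart, and this difference in means was the largest of the 19970 promoters. H3K4me3 covered 32.3% and 100% of its TSS ± 1 kb under the label All gRNA and 0% and 100% under the label No gRNA, so this mark did not follow the labels. The file names of 2 H3K4me3 libraries, labelled All gRNA replicate 2 and No gRNA replicate 1, state the other condition. H3K4me3 libraries are named here by their labels, and no direction between the H3K4me3 groups is firmer than those labels. With these 2 libraries exchanged as the file names have it, ZEB1 would read 32.3% and 0% for All gRNA against 100% and 100% for No gRNA. The full lists covered 23.9% to 25.4% of the genome for H3K9me3 and 20.6% to 30.8% for H3K4me3, since they keep peaks with p up to about 0.1, whereas peaks with q ≤ 0.05 covered 3.22% to 7.85% and 0.636% to 3.78%. In the median promoter H3K9me3 covered 3.41% to 7.41% and H3K4me3 covered 96.9% to 100%, by library.

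**Figure D1:**
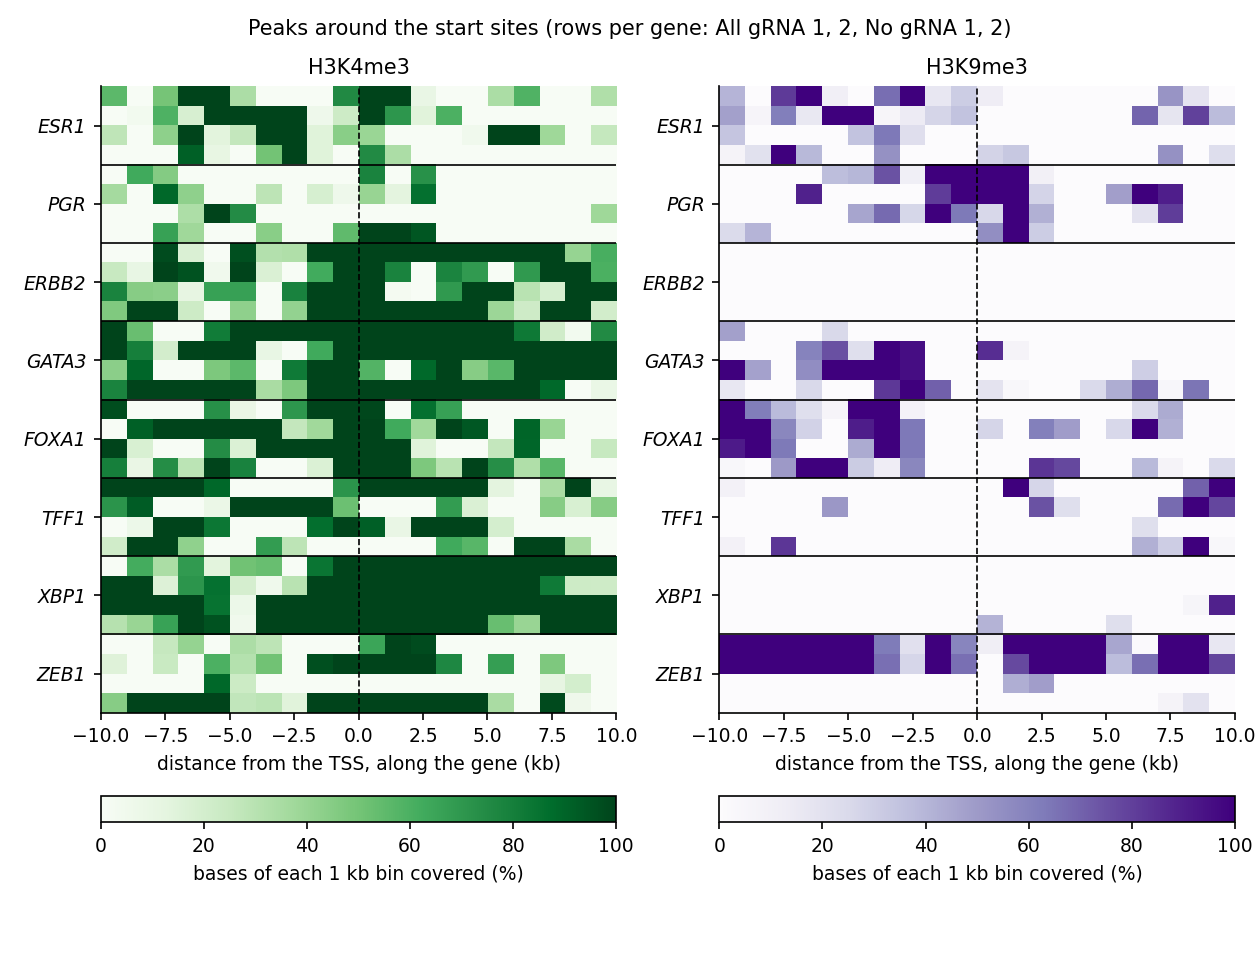
Share of each 1 kb bin covered by peaks (colour, %) against distance from the TSS in kb, positive into the gene, for H3K4me3 (left) and H3K9me3 (right). Each gene has 4 rows, from top to bottom All gRNA 1 and 2 and No gRNA 1 and 2. H3K4me3 runs across the starts of ERBB2, GATA3, FOXA1 and XBP1 in every library. H3K9me3 lies over the start of PGR in the All gRNA libraries only, and ZEB1 at the bottom is the targeted gene.

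H3K4me3 covered the starts of ERBB2, XBP1, GATA3 and FOXA1 at 79.0% or more in every library, and those of ESR1, PGR and TFF1 less fully in at least 1 library. Peaks covered 100% of the TSS ± 1 kb of ERBB2 and of XBP1 in all 4 H3K4me3 libraries. GATA3 was covered at 100% and 100% under the label All gRNA and at 79.0% and 100% under the label No gRNA. FOXA1 was covered at 99.4% and 100% under the label All gRNA and at 100% in both under the label No gRNA. In bulk chromatin, fewer cells with a mark and less of it per cell cannot be told apart.

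The start of ESR1 was covered at 87.9% and 61.3% under the label All gRNA and at 41.5% and 37.6% under the label No gRNA. The groups did not overlap, with means of 74.6% ± 18.8 and 39.6% ± 2.72 (SD, n = 2 each). The difference of 35.0 percentage points was larger than the pooled SD of 13.4, and the exact two-sided permutation test gave p = 0.33, the smallest p that 2 against 2 libraries allow. A difference at least as high was found at 1147 of the 19970 promoters. With the 2 libraries exchanged as their file names have it, ESR1 would read 87.9% and 41.5% against 61.3% and 37.6%, and its groups would overlap.

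PGR was covered at 39.0% and 23.1% under the label All gRNA and at 0% and 77.5% under the label No gRNA. TFF1 was covered at 85.6% and 25.8% against 95.8% and 0%. For both genes the libraries of one label differed from each other by more than the group means did, and p was 1 in the exact permutation test. For TFF1 this rests on the labels. With the 2 libraries exchanged it would read 85.6% and 95.8% for All gRNA against 25.8% and 0%. These are apart by more than the 25 points that a call needed. How many of all promoters would pass that gap in this grouping was not counted, so whether TFF1 stands out there is unknown. PGR would read 39.0% and 0% against 23.1% and 77.5% and would overlap. Averaged over the 4 libraries, the H3K4me3 share stood at percentile 19.8 of all promoters for PGR, 27.7 for TFF1 and 30.2 for ESR1. It stood at 55.5 for GATA3, 65.2 for FOXA1 and 82.8 for ERBB2 and XBP1, which are tied with every promoter at 100%.

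In counts, 5 of the 7 starts had an H3K4me3 peak in all 4 libraries, beside 73.5% of all promoters. Covered in full in all 4 were 2 of the 7, ERBB2 and XBP1, beside 34.5%. A call needed a gap of at least 25 percentage points between the lower library of one group and the higher library of the other. None of the 7 was called for H3K4me3, where 1.67% of all promoters were called higher and 1.87% lower under the labels (334 and 374). With peaks kept to equal covered length in each library these were 378 and 213, and none of the 7 was called. Without the library labelled All gRNA replicate 2 ESR1 would be called higher, beside 4.20% of all promoters. Without that labelled No gRNA replicate 1 PGR would be called lower, beside 6.61%, and TFF1 higher, beside 3.24%. The groups did not overlap at 1 gene, ESR1, which was higher under the label All gRNA, beside 6.11% of all promoters that were higher without overlap and 6.46% that were lower. The median difference over the 7 genes was 0 points, as it was over all promoters.

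**Figure D2:**
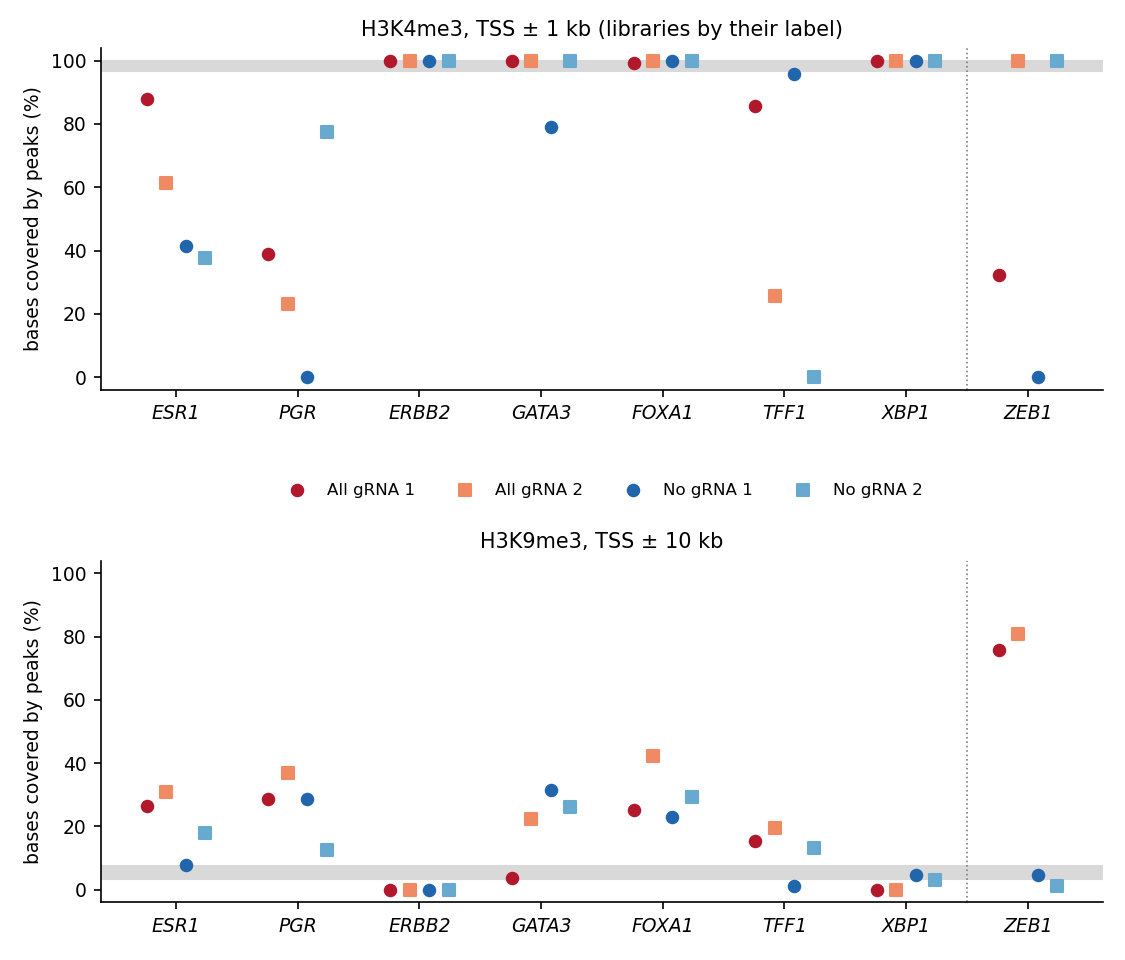
Share of bases covered by peaks (%) in each library for H3K4me3 in the TSS ± 1 kb (top) and H3K9me3 in the TSS ± 10 kb (bottom), 1 point per library. The grey band spans the library medians over all promoters, 96.9% to 100% for H3K4me3 and 3.41% to 7.41% for H3K9me3. ESR1, PGR and TFF1 spread widely for H3K4me3, and ZEB1 alone shows H3K9me3 groups far apart.

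The width of the H3K4me3 peak over the start, that is the length of the longest merged peak in the window, separated the genes further. XBP1 had peaks of 13739 and 10115 bases under the label All gRNA and of 15192 and 9576 bases under the label No gRNA. Those of GATA3 were 12636 and 12418 bases against 3399 and 10358 bases, and those of ERBB2 were 10732 and 3401 bases against 3807 and 7801 bases. FOXA1 had 3693 and 2998 bases against 6315 and 3642 bases. The median width over promoters with a peak was 5328 to 6627 bases by library, so XBP1 was broader than the median promoter in all 4 libraries and GATA3 in 3.

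The peaks at ESR1 were narrow, at 2854 and 1931 bases under the label All gRNA and 830 and 1090 bases under the label No gRNA, all below the library medians. Group means were 2392.5 bases ± 653 and 960 bases ± 184 (SD, n = 2 each), and the exact permutation test gave p = 0.33. At PGR the widths were 781 and 401 bases against none and 3494 bases. At TFF1 they were 5837 and 4596 bases against 2780 bases and none. The FOXA1 peak also held the start of TTC6, 380 bases from that of FOXA1 and read in the other direction, in all 4 libraries, so its width cannot be assigned to either gene.

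The H3K4me3 peaks also differed in strength. The strongest XBP1 peak had a q of 0.00623 and 0.0841 under the label All gRNA and of 0.000568 and 3.51e-05 under the label No gRNA, with the authors' fold enrichment between 2.65 and 4.25. At ERBB2 the q values were 0.0505 and 0.0284 against 0.299 and 0.000805. GATA3 (q of 0.0198) and FOXA1 (q of 0.00525) passed q ≤ 0.05 in 1 library alone, that labelled No gRNA replicate 2. That library also placed such a peak at 54.6% of all promoters, against 9.49% to 34.6% in the other 3, and the part of library yield in these calls was not tested.

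No peak at ESR1, PGR or TFF1 passed q ≤ 0.05 in any library. The lowest q was 0.122 at ESR1, 0.442 at PGR and 0.526 at TFF1, each in the library labelled All gRNA replicate 1. At ESR1 the other 3 libraries had a q of 0.706 to 0.848, and 49.99% to 62.7% of the peaks of their lists were as strong or stronger. A peak with q ≤ 0.05 in at least 1 library was thus present at 4 of the 7 genes, beside 56.7% of all promoters, and in at least 3 libraries at 1 gene, XBP1, beside 14.3%.

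**Figure D3:**
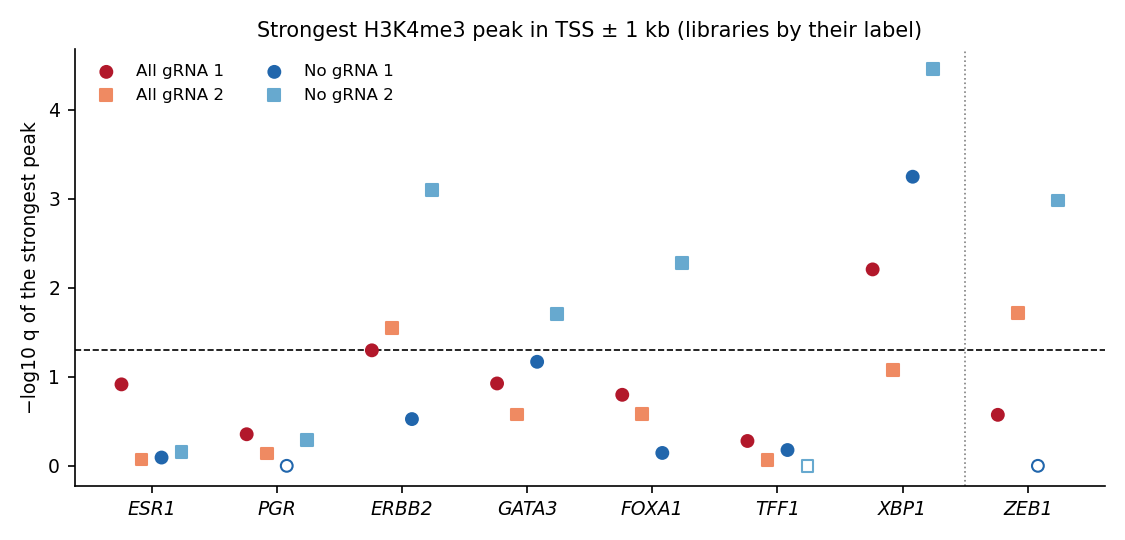
The −log10 q of the strongest H3K4me3 peak in the TSS ± 1 kb, 1 point per library, with open symbols at 0 where no peak was listed and a dashed line at q = 0.05. XBP1 passes the line in 3 libraries, ERBB2 in 2, GATA3 and FOXA1 in 1 each, and ESR1, PGR and TFF1 in none.

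Several of these genes have further annotated starts, and peaks there were read in the same way. ESR1 had 8 groups of starts. A start 117186 bases upstream, used by 2 annotated protein-coding transcripts, was covered at 91.8% and 98.0% under the label All gRNA and at 92.1% and 57.0% under the label No gRNA, and passed q ≤ 0.05 in 1 library. It exceeded the main start in each library. The farthest upstream start, at 150991 bases, had no peak in any library. ERBB2 had a second covered start 12150 bases upstream, with 100% and 94.9% against 100% and 100% and a peak of q ≤ 0.05 in 3 libraries, 1 more than at its main start. That region lies close to the start of PGAP3, 12007 bases from that of ERBB2. The other start of XBP1, 3524 bases into the gene, was covered at 100% in all 4 libraries, within the same broad peak region.

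In the wider TSS ± 1 kb the ratio of observed to expected CpG was 0.846 at FOXA1, 0.837 at XBP1, 0.808 at GATA3, 0.754 at ESR1, 0.585 at PGR, 0.532 at ERBB2 and 0.328 at TFF1. Over all promoters, 8.26% of those with a ratio under 0.2 had an H3K4me3 peak of q ≤ 0.05 in at least 1 library, against 56.3% of those from 0.4 to 0.6 and 79.8% of those from 0.8. ESR1 stood at percentile 75.1 for CpG and 30.2 for H3K4me3 share, and ERBB2 stood at percentile 34.7 for CpG and 82.8 for H3K4me3 share. ESR1 thus ranked lower for the mark than for CpG. So did GATA3 (percentile 85.7 for CpG and 55.5 for the mark), FOXA1 (91.3 and 65.2), XBP1 (90.1 and 82.8) and PGR (41.3 and 19.8). ERBB2 ranked higher, as did TFF1 (22.3 and 27.7). The percentile of 82.8 is that of every promoter at 100%.

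**Figure D4:**
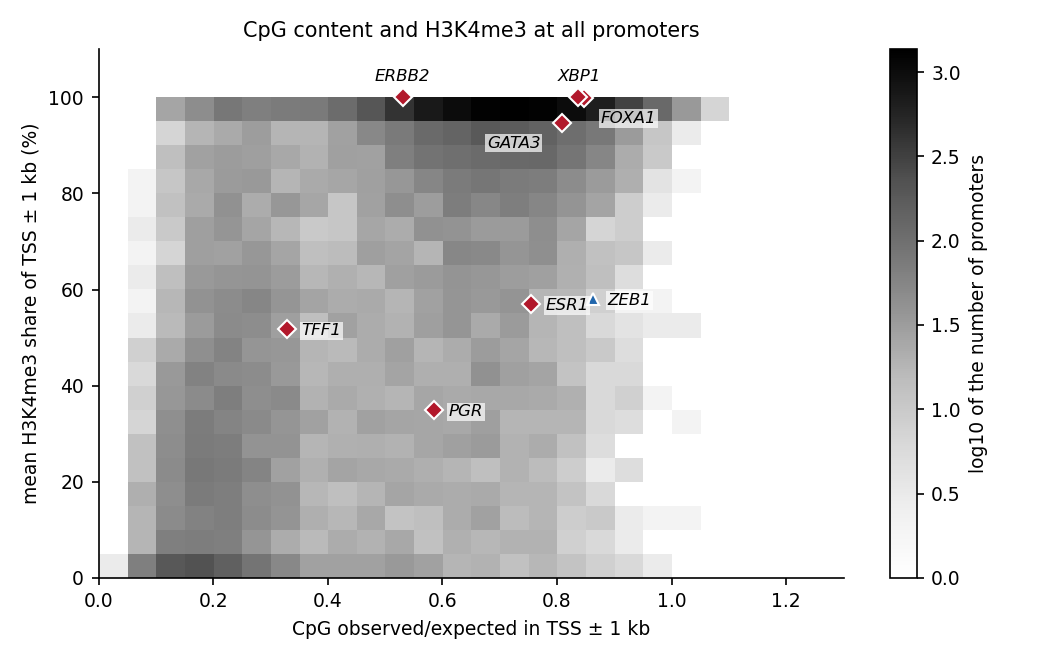
Mean H3K4me3 share of the TSS ± 1 kb over the 4 libraries (%) against the observed/expected CpG ratio of the same window. Grey shows the number of promoters per cell on a log10 scale, diamonds are the 7 genes and the triangle is ZEB1. ESR1, with a ratio of 0.754, lies at a mean share of 57.1%, below the median of 99.1% for ratios from 0.6 to 0.8, and ERBB2 at 0.532 lies at 100%.

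Motifs were counted on both strands of the TSS ± 1 kb. The E-box CACCTG, the sequence that ZEB1 binds, was found 4 times at TFF1, 2 times each at ESR1, FOXA1 and XBP1, once each at ERBB2 and GATA3, and not at PGR, and 82.4% of all promoter windows hold it. The GATA motif AGATAA was found 4 times at PGR, 2 times at XBP1 and once each at ERBB2, GATA3 and TFF1, beside 49.9% of windows. The FOXA motif TGTTTAC was found once, at ERBB2, beside 17.7% of windows. The full oestrogen response element (GGTCA and TGACC, 3 bases apart) was in none of the 7 windows and in 0.215% of all. Only exact matches were counted, so an imperfect element in these windows would be missed. None of the 4 motifs contains another.

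Averaged over the 4 libraries, H3K9me3 covered less of the TSS ± 10 kb at ERBB2 and XBP1 than at the other members. ERBB2 had no H3K9me3 peak in any of the 4 libraries, either in this window or in its gene body. XBP1 had 0% and 0% in All gRNA cells and 4.72% and 3.13% in No gRNA cells. In No gRNA replicate 1 it lay above TFF1, which had 1.08%. ERBB2 and XBP1 are the 2 genes whose starts H3K4me3 covered in full.

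ESR1 was covered at 26.4% and 30.8% in All gRNA cells and at 7.72% and 17.8% in No gRNA cells. The groups did not overlap, with means of 28.6% ± 3.08 and 12.8% ± 7.16 (SD, n = 2 each), and the difference of 15.8 points exceeded the pooled SD of 5.51 (p = 0.33, exact permutation test). TFF1 was covered at 15.3% and 19.6% in All gRNA cells and at 1.08% and 13.3% in No gRNA cells. PGR was covered at 28.6% and 36.8% in All gRNA cells and at 28.6% and 12.5% in No gRNA cells, where 1 control library equalled the lower All gRNA library to within 0.03 points.

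GATA3 was covered at 3.65% and 22.2% in All gRNA cells and at 31.4% and 26.0% in No gRNA cells. Its difference of -15.8 points exceeded the pooled SD of 9.66, but most of it came from All gRNA replicate 1, and p was 0.33 in the exact permutation test. Measured around the annotated 5′ end of the gene, another start, the difference was 2.03 points at GATA3 and -4.80 points at ESR1. FOXA1 was covered at 25.2% and 42.2% in All gRNA cells and at 23.1% and 29.2% in No gRNA cells, so its groups overlapped. Averaged over the 4 libraries, H3K9me3 stood at percentile 87.5 of all promoters for FOXA1, 85.8 for PGR, 81.0 for GATA3, 80.8 for ESR1, 68.8 for TFF1, 27.5 for XBP1 and 4.83 for ERBB2. The mean shares of FOXA1, PGR, GATA3 and ESR1, from 20.7% to 29.9%, were close to the share of the whole genome that these lists cover.

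None of the 7 genes was called for H3K9me3, where 0.185% of all promoters were called higher and 0.0401% lower. The groups did not overlap at 5 genes. All gRNA was higher at 3 of them, ESR1, PGR and TFF1, beside 10.7% of all promoters, and lower at 2, GATA3 and XBP1, beside 24.3%. The median difference was 7.56 points over the 7 genes and -0.965 over all promoters, and without All gRNA replicate 2 the first was 0 points. Peaks were weak: 1 peak near these genes passed q ≤ 0.05, at FOXA1 in No gRNA replicate 2 (q of 0.0234), so 1 of 7 genes had such a peak in at least 1 library, beside 14.1% of all promoters.

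Where the H3K9me3 lay within the window differed by gene, as the map of 1 kb bins shows. It lay mostly from 10 kb to 2 kb upstream at FOXA1 in all 4 libraries and at GATA3 in all but No gRNA replicate 2, and the TSS ± 1 kb was free of it in 3 of 4 libraries at FOXA1 and in 2 of 4 at GATA3. At TFF1 the TSS ± 1 kb held none beyond 0.04997% in 1 library. At PGR it lay over the start itself in both All gRNA libraries. In No gRNA cells the strongest peak lay inside the gene and ended short of the start, at base 101129070 in replicate 1 and 101129360 in replicate 2. The 1 kb bin just upstream of the start was covered at 63.1% in No gRNA replicate 1 and 0% in replicate 2. The TSS ± 1 kb window for H3K9me3 was looked at after the values were seen. Peaks covered 100% of the PGR TSS ± 1 kb in both All gRNA libraries, against 44.4% and 27.4% in No gRNA cells. The group means were 100% ± 0 and 35.9% ± 12.0 (SD, n = 2 each), and p was 0.33 in the exact permutation test. PGR was the single gene of the 7 that would be called in this narrower window, beside 1.33% of all promoters called higher there and 0.996% lower, and its gap was 55.6 points, which 45 of the 265 promoters called higher, PGR included, reached. The strongest H3K9me3 peak in the TSS ± 10 kb of PGR had a q between 0.184 and 0.408, 25.8% to 42.8% of the peaks in its list were as strong or stronger, and no peak there passed q ≤ 0.05.

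Around PGR the same order held over a longer stretch. H3K9me3 covered 41.8% and 40.6% of the TSS ± 100 kb in All gRNA cells and 30.1% and 26.9% in No gRNA cells, and 35.1% and 36.9% of the gene body against 26.8% and 19.3%. Around ESR1 it covered 31.6% and 33.9% of the TSS ± 100 kb in All gRNA cells and 25.5% and 26.6% in No gRNA cells, but the gene body was covered at 24.996% and 29.7% against 23.8% and 25.1%, where the groups overlapped (p = 0.67, exact permutation test). The body of TFF1 was covered at 29.8% and 22.6% in All gRNA cells and had no peak in either No gRNA library, whereas its TSS ± 100 kb was covered at 15.7% and 16.7% against 9.35% and 25.3% (p = 1, exact permutation test). FOXA1 had 15.02% and 17.2% of the TSS ± 100 kb covered against 12.2% and 14.4%.

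Other genes were lower in All gRNA cells over these regions. GATA3 was covered at 0.848% and 14.9% of its body against 20.0% and 20.9%, and at 12.1% and 16.7% of the TSS ± 100 kb against 19.4% and 17.3%. Over the TSS ± 100 kb, ERBB2 was covered at 4.25% and 3.83% against 8.17% and 7.90%, and XBP1 at 5.37% and 4.19% against 6.44% and 7.73%. The exact permutation test gave p = 0.33 for each of these comparisons but those of the ESR1 body and the TFF1 TSS ± 100 kb, and p = 1 for the bodies of FOXA1 and XBP1, whose groups were not apart. Over all genes the median gene body was covered at 2.53% and 3.45% in All gRNA cells and at 5.28% and 6.21% in No gRNA cells, so it was also lower in All gRNA cells. The mean gene body was covered at 13.0% and 14.2% against 13.5% and 15.3%. How many of all genes had groups apart over the gene body or the TSS ± 100 kb was not counted. These regions were also chosen after values were seen.

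Promoters with the most similar pattern over all 8 shares were found for each gene, as the mean absolute difference in percentage points. No promoter lay within 5 points of ESR1 or PGR. The nearest to ESR1 were BST1 (5.39 points) and CMTM5 (6.95), and the nearest to PGR were ANKRD20A1 (6.34) and IGF1 (7.19). TFF1 had 2 promoters within 5 points, TINAG (4.20) and HUS1B (4.97). GATA3 had 37, led by RAB40B (1.86) and ROPN1B (3.11), and FOXA1 had 194, led by RRAGA (1.78) and DCTN6 (1.83). ERBB2 and XBP1 shared their pattern with 7379 and 7705 promoters, the first by symbol AASDH and ACACA at 0 points for ERBB2, and C10orf95 (0.0319) and KLF12 (0.0550) for XBP1.

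Other genes of the luminal programme were read from a list of 32. An H3K4me3 peak was present in all 4 libraries at 27 of them, 13 were covered in full, and 19 had a peak of q ≤ 0.05 in at least 1 library, which is 59.4%, near the 56.7% of all promoters. TFF3, another trefoil gene on chromosome 21, was called higher under the label All gRNA, with 81.4% and 100% against 0% and 30.2%. TFAP2B, of the AP-2 factors, was called lower, with 36.9% and 40.3% against 100% and 100%. These calls, 1 of 32 genes in each direction, stand beside 1.67% and 1.87% of all promoters. With the 2 libraries exchanged as their file names have it, TFF3 would read 81.4% and 0% against 100% and 30.2% and TFAP2B 36.9% and 100% against 40.3% and 100%, and neither would be called. No gene of the list was called for H3K9me3, and its median difference was -2.49 points. ESR2, oestrogen receptor beta, was covered by H3K9me3 at 0% and 6.37% in All gRNA cells and at 15.02% and 2.29% in No gRNA cells. GREB1, an oestrogen target, had H3K4me3 at 39.9% and 79.9% under the label All gRNA and at 100% in both under the label No gRNA. With the 2 libraries exchanged it would read 39.9% and 100% against 79.9% and 100%, and its groups would overlap.

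Of 12 basal markers, 11 had an H3K4me3 peak in all 4 libraries and 7 had a peak of q ≤ 0.05 in at least 1. Of 12 mesenchymal markers, all had a peak in every library and all had a peak of q ≤ 0.05 in at least 1, among them VIM, CDH2, FN1 and SNAI2, and none was called for either mark. Of 12 housekeeping genes, all had a peak in every library and 11 had a peak of q ≤ 0.05. The mean H3K9me3 share had a median of 20.7% over the 7 lineage and receptor genes, 7.79% over the luminal list, 10.9% over basal markers, 6.61% over mesenchymal markers, 1.99% over housekeeping genes and 5.91% over all promoters.

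**Figure D5:**
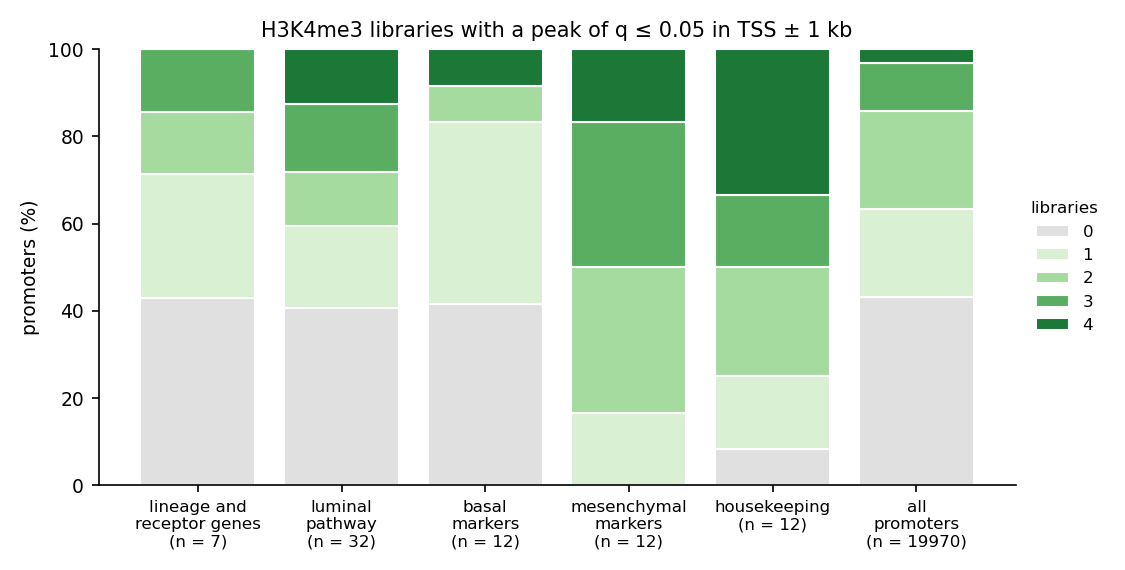
Percentage of promoters in each list by the number of H3K4me3 libraries (0 to 4) with a peak of q ≤ 0.05 in the TSS ± 1 kb. Of the 7 lineage and receptor genes 3 have none, as do 13 of 32 luminal genes, 5 of 12 basal, 0 of 12 mesenchymal and 1 of 12 housekeeping genes.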

How the data were processed

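According to the study's methods, reads were trimmed with fastp, aligned to hg38 with bowtie2, and broad H3K9me3 and H3K4me3 peaks were called with MACS2 (fragments extended to 200 bases) in each library. The submitters' processing notes name Trimmomatic 0.33, Bowtie 1.1.2 and MACS2 2.1.0 instead. Whether input served as the MACS2 control is not given in the sources used here. Each deposited peak carries a score, a fold enrichment ratio and −log10 p and −log10 q values, all from the authors' peak caller. With no read counts, no counting interval can be given.

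Peaks on chromosomes 1 to 22 and X were merged per library (Python 3.11.15, numpy 2.4.6, pandas 2.3.3, scipy 1.17.1), and the share of each window under them was computed, with all deposited peaks as the main setting. Start sites came from GENCODE release 44, as the MANE Select transcript for 19016 genes and the Ensembl canonical transcript for 954. Groups of 2 were compared with an exact two-sided permutation test over the 6 labellings (smallest p 0.33) and with the gap of 25 percentage points. The code was tested on simulated peak lists. Genes named were the 7 members, ZEB1, list members called or among the first 4 of their list, and the 2 most similar promoters per gene. Some genes that this rule names are not reported here. Members and lists were chosen with earlier results of these data known. Alternatives covered the q threshold, equal covered length, windows, start sites, the gap, each library left out, and the replicate block.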

Additional observations from a re-analysis of the deposited data

How the results depend on the processing

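Of 298 alternative values for 29 results, 198 differed from the reported value by less than 1 SD (counts by up to 1.5 times) and 100 by more. The 7 genes had no H3K9me3 call in any planned setting, and 1, PGR, in the TSS ± 1 kb, a window added after seeing the data, where 464 promoters were called. For H3K4me3, 1 of the 7 was called with a gap of 10 points (ESR1), and 3 when both libraries whose file names differ from the label were left out, also added after seeing the data, which left 1 library per group and 4296 promoters past the gap. The ESR1 call with a gap of 10 points, higher under the label All gRNA, stood beside 3.71% of all promoters called higher. Leaving out 1 library gave 0 to 2 H3K4me3 calls among the 7.

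The count of H3K4me3 starts marked in all libraries, 5 with all deposited peaks, was 3 with equal covered length and 0 at q ≤ 0.05, at q ≤ 0.01 and with equal covered length at the q ≤ 0.05 yield (added after seeing the data). Starts covered in full, 2 as reported, numbered 0 in those 3 settings and in the TSS ± 2 kb, 1 at the 5′ end of the gene and 4 in the TSS ± 500 bases. The H3K9me3 median difference of 7.56 points was 0 at q ≤ 0.05, at q ≤ 0.01 and at the equal q ≤ 0.05 yield, and lay between 0 and 12.4 points with 1 library left out. Stricter thresholds remove the weak peaks themselves.

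Over all promoters, 708 were called for H3K4me3. The count was 357 at q ≤ 0.05 (19 higher, 338 lower), 214 at q ≤ 0.01, 424 at the equal q ≤ 0.05 yield, where the balance turned (360 higher, 64 lower), 1539 with a gap of 10 points, 174 with 50 points, and 1968 to 3497 without 1 library. The 45 H3K9me3 calls became 27 at q ≤ 0.01, 70 at the equal q ≤ 0.05 yield, 92 in the TSS ± 5 kb, 29 in the TSS ± 25 kb, 692 and 3 with gaps of 10 and 50 points, and 131 to 180 without 1 library. Same-numbered libraries did not deviate together (correlation over promoters 0.0252 for H3K4me3 and 0.0328 for H3K9me3). The numbers thus showed no pairing for H3K9me3. For H3K4me3 the value rests on labels in doubt and cannot decide whether libraries were paired. With the replicate block, 1009 and 66 promoters were called and 0 of the 7 genes for either mark.

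Single-gene differences in share changed sign in 13 of 168 values, 8 of them for H3K4me3, and none of those genes had been called. The difference in H3K4me3 width, All gRNA less No gRNA by label, turned from 1262.5 bases to -2200 at q ≤ 0.05 and -3900.5 at q ≤ 0.01 at ERBB2, and from 5648.5 to -5179 at q ≤ 0.05 at GATA3. Libraries without a peak counted as 0 bases here. ERBB2 at q ≤ 0.01 and GATA3 at q ≤ 0.05 kept a peak only in the library labelled No gRNA replicate 2, of 7801 and 10358 bases. ERBB2 at q ≤ 0.05 also kept that of 3401 bases in the library labelled All gRNA replicate 2. Only 2 libraries per group and unknown depth limit every comparison.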
